A study of Homo sapiens with 8 samples.

Results

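The plakin family comprises 7 human genes for very large cytolinker proteins, PLEC, MACF1, DST, DSP, EPPK1, EVPL and PPL. Its METTL3 peaks were taken as all peaks of the deposited lists that lay whole within the GRCh38 span of 1 of these genes. This gave 55 of the 2616 peaks listed for LNCaP and 30 of the 1033 peaks listed for PC3. The family was chosen by the number and fold of its peaks in earlier results of these lists, so the presence, number, p and fold of the peaks are given as a description, without a test. The study was an RNA immunoprecipitation with sequencing (RIP-seq) of METTL3, the methyltransferase that deposits m6A, a methyl mark on adenosines of RNA, in prostate cancer cells. Both lines were established from metastases, LNCaP being responsive to androgen and PC3 not. The labels name no treatment, and the LNCaP medium held more serum than the PC3 medium. For each line, 80% of a lysate went to the anti-METTL3 IP and 10% was kept as input, with 2 IP and 2 input libraries, 8 samples in all. The remaining lysate was incubated with rabbit IgG, and no IgG library was used here.

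Each line has 1 list of peaks with no values per library. No error between replicates, no depth and no test between the lines can be given, and each value describes a line as a whole. The fold of a peak is the authors' own linear fold enrichment, which the design leads one to read as IP over input although the header does not name the denominator. The p of a peak is also the authors' own. A peak runs from its first to its last base on the genome and can contain introns. The lists differ in the p-values they hold, up to 0.0178 in LNCaP and up to 1.59e-05 in PC3. The latter is called the PC3 p limit here, although whether it was a filter is not known. Peaks with a p above this limit were listed in LNCaP only, and 14.9% of the LNCaP list was at or under it. Of the marker genes looked up for the lines, 3 of 7 for LNCaP and 0 of 5 for PC3 carried a peak in LNCaP, and none of the 12 did in PC3. Over all protein-coding genes, the share with a peak was 5.62% in LNCaP and 1.83% in PC3. The peak lists show enrichment and not expression, so they do not check the identity of the cells.

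Plakins tie the cytoskeleton to itself and to the sites where epithelial cells hold on to each other and to their matrix. Plectin, from PLEC, links intermediate filaments to actin, to microtubules and to hemidesmosomes. MACF1 and dystonin, from DST, are the spectraplakins, which carry actin-binding and microtubule-binding ends on a long rod of spectrin repeats. Desmoplakin, from DSP, anchors intermediate filaments at desmosomes, and envoplakin and periplakin, from EVPL and PPL, are parts of the cornified envelope of stratified epithelia. Epiplakin, from EPPK1, consists of plakin repeats and binds keratin filaments.

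In LNCaP 5 of the 7 members carried a peak, MACF1 with 23, PLEC with 16, DSP with 7, EPPK1 with 5 and EVPL with 4. In PC3 3 of the 7 did, PLEC with 15, MACF1 with 9 and DSP with 6. DST and PPL had no peak in either list. Among all 19974 protein-coding genes, 5.62% held a peak in LNCaP, 1.83% in PC3 and 1.16% in both. Long genes held a peak more often, and over the 10991 genes with a span of at least 20000 bp, the range that takes in all members, the shares were 8.53%, 2.96% and 1.86%. Genes with a peak carried a median of 1 peak in LNCaP and 2 in PC3. No gene had more peaks than MACF1 in LNCaP, while 2 genes had more than PLEC there and 3 had more than PLEC in PC3. In PC3, 11 genes had more peaks than MACF1.

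Per length of gene the order changed. PLEC carried 25.98 peaks per 100 kb of span in LNCaP and 24.4 in PC3. MACF1, the longer gene, carried 5.71 and 2.23. DSP carried 15.5 and 13.3, EPPK1 22.9 in LNCaP, and EVPL 19.5 in LNCaP. The median over all genes with a peak was 2.64 per 100 kb in LNCaP and 2.92 in PC3, so MACF1 in PC3 was under the median of its list and every other pair of member and line with a peak was above it.

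All 85 member peaks were on the strand from which the gene is transcribed (100%, exact 95% binomial interval 95.8 to 100%, which covers counting error only). Among listed peaks within a single gene of known strand, 97.5% in LNCaP and 97% in PC3 were on the strand of their gene, so this share was close to the background. The strands of MACF1, DST and DSP came from RefSeq and those of PLEC, EPPK1, EVPL and PPL from general knowledge of these genes. No peak lay across the edge of a member's span. The peak nearest to an edge on the inside was 732 bp from it, on EPPK1 in LNCaP. On the outside, the nearest were 11344 bp (fold 4.02) and 11269 bp (fold 8.91) from PPL in LNCaP and PC3, both on UBN1. Pseudogenes, lncRNAs and MIR661, which overlap some spans, were met by 0 member peaks in either list.

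PLEC (chromosome 8, 143915153 to 143976745, minus strand, 61593 bp) carried peaks over the same stretch in both lines. In LNCaP, 15 of its 16 peaks began between 38.1 and 59.2 kb from the start of the gene, and the remaining one, a 51 bp peak with a fold of 4.805, began 1.39 kb from the start. In PC3, all 15 peaks began between 34.3 and 59.9 kb. No PC3 peak was listed in the first 34.3 kb of the gene. The LNCaP peak near the start had a p of 0.00624, above the PC3 p limit.

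The strongest PLEC peak by p was the same place in both lines. In LNCaP it ran from 143921896 to 143927878 (5983 bp) with a fold of 12.5 and a p of 9.81e-41, number 1 of the 2616 peaks by p. In PC3 it began at the same base and ran to 143929794 (7899 bp), with a fold of 10.5 and a p of 2.34e-80, number 4 of 1033. Another long peak lay further towards the start of the gene in both lines. It ran from 143930416 to 143934880 in LNCaP (4465 bp, fold 9.52, number 32 by p) and from 143930231 to 143934905 in PC3 (4675 bp, fold 6.999, number 38 by p). Between these long peaks lay a short one that began at 143929819 in both lines, with a fold of 7.99 over 207 bp in LNCaP and 10.3 over 363 bp in PC3.

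**Figure D1:**
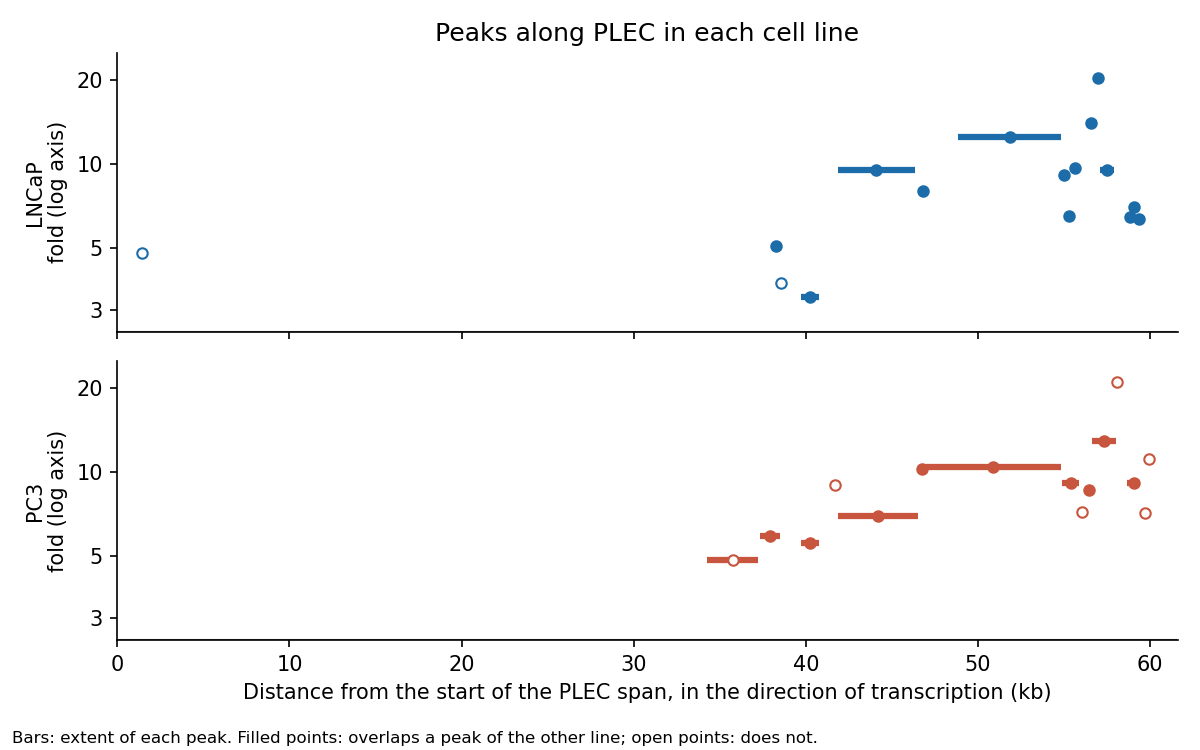
Fold of each PLEC peak (log axis) against its distance in kb from the start of the gene, in the direction of transcription, for LNCaP (top) and PC3 (bottom). Bars span each peak, and filled points mark peaks that overlap a peak of the other line. Beyond 34.3 kb the peaks of both lines cover the same stretch, and only LNCaP has a peak near the start, at 1.39 kb.

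Beyond the long peaks, towards the end of PLEC, folds were mixed, from 6.34 to 20.4 in LNCaP and from 7.17 to 21.1 in PC3. These peaks were shorter than the long ones, with lengths up to 801 bp in LNCaP and 1401 bp in PC3. The largest PLEC fold in LNCaP was 20.4 at 143919746 to 143919821 (76 bp), and the next was 14.1 at 143919846 to 143920471. A single PC3 peak from 143918746 to 143920146 met both of them, with a fold of 12.9 and a p of 3.35e-58, number 8 of the PC3 list. The largest PLEC fold in PC3 was 21.1 at 143918596 to 143918696 (101 bp), 150 bp from the nearest LNCaP peak and not overlapping it. Nearer the end of the gene, 3 LNCaP peaks with folds of 6.44, 6.996 and 6.34 met 1 PC3 peak, from 143917321 to 143918071, with a fold of 9.15. The PC3 list went on to 143916696, with a fold of 7.17 over 76 bp and a fold of 11.2 over 176 bp at its last peaks. Towards the start of the gene, the folds were lower. In the middle of 3 equal parts of the gene they were 3.32, 3.74 and 5.07 in LNCaP and 4.83, 5.58 and 5.92 in PC3. In the last part they ran from 6.34 to 20.4 in LNCaP and from 6.999 to 21.1 in PC3, 12 peaks in each, so the folds of the middle and last parts did not overlap in either line.

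Nearly all PLEC bases under a LNCaP peak were also under a PC3 peak, and PC3 peaks covered more. Peaks covered 15282 bp in LNCaP (24.8% of the gene span) and 22321 bp in PC3 (36.2%), and 15106 bp were covered in both. The shared bases were 98.8% of those in LNCaP and 67.7% of those in PC3. Of the peaks, 14 of 16 in LNCaP and 9 of 15 in PC3 met a peak of the other line. They formed 15 overlapping pairs, of which 5 began at the same base and 2 ended at the same base. How often overlapping peaks of the whole lists share a bound was not counted. The PC3 fold was the higher one in 9 of the pairs and the LNCaP fold in 6. All 6 PLEC peaks without a counterpart in LNCaP were within 832 bp of a LNCaP peak, and 5 of them within 400 bp.

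MACF1 (chromosome 1, 39084167 to 39487138, plus strand, 402972 bp) has 3 annotated transcript starts in the RefSeq table, and its peaks lay mostly beyond the third. The 250 bases before each start are shown because these starts divide the peaks. Capitals mark the letters GGGCGG or, on the other strand, CCGCCC, the core of the GC box that Sp-family factors bind. Sequences are from RefSeq, GRCh38.p14, plus strand, at chr1:39083917-39084166, chr1:39204445-39204694 and chr1:39408823-39409072.
MACF1 start 1: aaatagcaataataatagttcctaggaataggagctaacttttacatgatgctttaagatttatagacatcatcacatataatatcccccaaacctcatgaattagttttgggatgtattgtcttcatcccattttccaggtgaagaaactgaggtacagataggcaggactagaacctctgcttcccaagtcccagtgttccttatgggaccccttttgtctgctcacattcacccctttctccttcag
MACF1 start 2: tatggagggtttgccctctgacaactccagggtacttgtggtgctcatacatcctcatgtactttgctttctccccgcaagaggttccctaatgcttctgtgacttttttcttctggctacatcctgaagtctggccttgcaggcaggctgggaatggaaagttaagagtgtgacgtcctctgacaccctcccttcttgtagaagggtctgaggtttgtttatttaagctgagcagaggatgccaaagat
MACF1 start 3: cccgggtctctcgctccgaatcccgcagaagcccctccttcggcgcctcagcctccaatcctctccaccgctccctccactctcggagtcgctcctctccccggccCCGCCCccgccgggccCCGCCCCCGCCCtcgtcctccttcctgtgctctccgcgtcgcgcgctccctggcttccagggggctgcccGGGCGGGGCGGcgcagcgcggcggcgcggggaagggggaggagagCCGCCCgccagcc

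The windows differed in base composition. G and C made up 40% of the bases before start 1, 48.4% before start 2 and 78% before start 3, against a median of 58% over the 35116 windows of the table. GGGCGG or CCGCCC occurred 0 times before starts 1 and 2 and 6 times before start 3, and at least once in 42.6% of all windows, counting both strands. No peak of either line overlapped a start or its window.

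In LNCaP, 2 MACF1 peaks began between starts 1 and 2, 7 between starts 2 and 3 and 14 beyond start 3. In PC3 the counts were 0, 2 and 7. The nearest peak beyond start 3 began 13.4 kb from it in LNCaP and 13.3 kb in PC3. RNA from every start that crosses this stretch would contribute to these peaks, so the counts do not assign a peak to a start. Over the whole gene the first peak began at 19.5 kb in LNCaP and at 265 kb in PC3, and the last ended at 384 kb and 365 kb.

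The strongest MACF1 peaks in LNCaP lay in the last part of the gene, and several of them were long. By p the first was 39442796 to 39448076 (5281 bp), with a fold of 8.48 and a p of 2.85e-07, number 196 of the list. It was met by 2 PC3 peaks, at 39444667 to 39447438 and 39447488 to 39447767, with folds of 6.01 and 5.91. The largest fold, 12.8, was at 39455009 to 39459101 (4093 bp), and no PC3 peak lay within 6292 bp of it. Its p of 2.27e-05 was just above the PC3 p limit. A further 3 peaks had no PC3 counterpart, although their p-values were under the limit. Their folds were 9.82 at 39379407 to 39385841 (6435 bp), 8.77 at 39442041 to 39442500 (460 bp) and 8.43 at 39433136 to 39437950 (4815 bp). The longest MACF1 peak in LNCaP, 6660 bp from 39462006, was the last along the gene and had a fold of 4.35. The other LNCaP folds on the gene ran down to 3.08, in a 51 bp peak at 39452732 to 39452782.

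**Figure D2:**
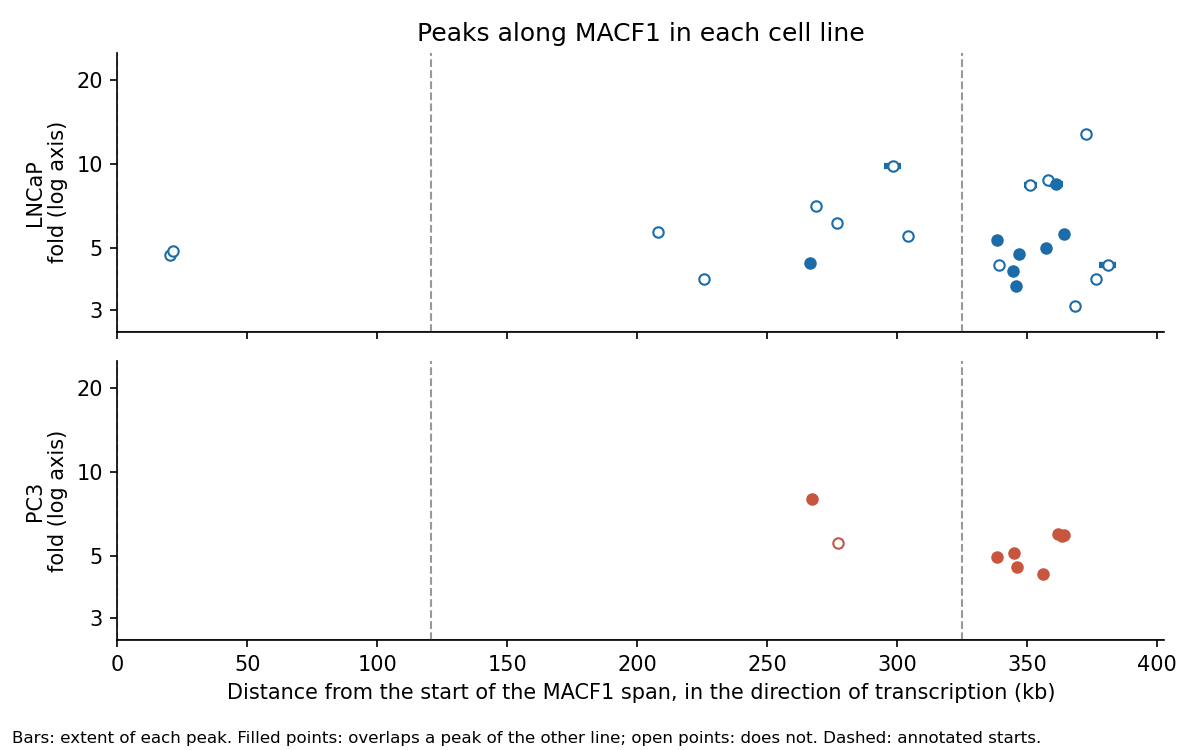
Fold of each MACF1 peak (log axis) against its distance in kb from the start of the gene, in the direction of transcription, for LNCaP (top) and PC3 (bottom). Bars span each peak, filled points mark overlap with the other line, and dashed lines mark annotated starts. Beyond start 3 lie 14 of 23 peaks in LNCaP and 7 of 9 in PC3.

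In PC3 the largest MACF1 fold was 8.04, at 39349593 to 39353113 (3521 bp), ahead of start 3. A LNCaP peak of 51 bp with a fold of 4.40 lay inside it, and another LNCaP peak of 51 bp with a fold of 7.04 began 25 bp after its end. The remaining PC3 folds ran from 4.33 to 6.01. The peak with the smallest p in PC3 was 39439290 to 39441315, with a fold of 4.33 and a p of 3.00e-13, number 281 of the list. Of the 9 PC3 peaks, 8 met a LNCaP peak, and the remaining one was 75 bp from a LNCaP peak. Of the 23 LNCaP peaks, 8 met a PC3 peak. The overlapping peaks made 9 pairs, with 1 shared start (39428280) and 1 shared end (39448717). LNCaP had the higher fold in 5 of them and PC3 in 4.

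Peaks covered 39302 bp of MACF1 in LNCaP (9.75% of the span) and 11635 bp in PC3 (2.89%). The 6188 bp covered in both were 15.7% of the LNCaP bases and 53.2% of the PC3 bases. MACF1 thus differed from PLEC, where the larger covered length was in PC3. At or under the PC3 p limit, 5 of the 23 LNCaP peaks remained on MACF1, against 6 of 16 on PLEC. On DSP, 3 of 7 remained. The LNCaP counts were then below the PC3 counts of 9 on MACF1, 15 on PLEC and 6 on DSP, so on all 3 genes which line had more peaks depended on the p-values admitted.

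DSP (chromosome 6, 7541671 to 7586714, plus strand, 45044 bp) carried 7 peaks in LNCaP and 6 in PC3, and all began more than 26 kb from the start of the gene. In LNCaP the strongest by p was 7577885 to 7579974 (2090 bp), with a fold of 6.85 and a p of 3.01e-21, number 8 of the list. It was followed after 25 bp by a peak from 7579999 to 7582771 (2773 bp) with a fold of 3.96. The PC3 peaks lay between 7579349 and 7583046, and all 6 met one of the LNCaP peaks. Their folds were 5.76, 6.99, 7.78, 5.93, 4.65 and 5.22 in order along the gene, and the highest of these, at 7580449 to 7581149, had a p of 9.66e-20. The largest LNCaP fold was 11.8, in a 201 bp peak at 7582846 to 7583046 that ended at the same base as the last PC3 peak.

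DSP also had LNCaP peaks with no PC3 peak nearby. A 51 bp peak at 7571872 to 7571922 had a fold of 6.12 and a p of 2.20e-14, number 25 of the LNCaP list, and lay 7427 bp from the nearest PC3 peak. The other 3 had folds of 5.64, 3.99 and 4.36 and p-values above the limit. Peaks covered 7058 bp of DSP in LNCaP and 3103 bp in PC3. The shared 3029 bp were 42.9% of the former and 97.6% of the latter. Among the 7 overlapping pairs, PC3 had the higher fold in 5, and in each of these the LNCaP side was the one peak with the fold of 3.96.

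EPPK1 (chromosome 8, 143857324 to 143879194, minus strand, 21871 bp) had peaks in LNCaP only. Of its 5 peaks, none lay in the last of 3 equal parts of the gene, 4 lay in the middle part and 1 in the first. The largest fold was 19.3, in a 51 bp peak at 143871698 to 143871748 with a p of 3.32e-09. The peak at 143867598 to 143868073 had a fold of 12.1 and a p of 2.44e-10, number 71 of the list, and the one at 143868273 to 143868973 had a fold of 10.8 and a p of 9.68e-06. The p-values of these 3 peaks were under the PC3 p limit, yet the gene was not in the PC3 list. The remaining peaks had folds of 3.18 and 3.32 at p-values of 0.0143 and 0.0129. EPPK1 holds plakin repeats that are very like one another, and how reads that match several of them were counted is not given in the sources used here.

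EVPL (chromosome 17, 76006845 to 76027306, minus strand, 20462 bp) also had peaks in LNCaP only, 4 peaks within 2 stretches near the end of the gene. The peak at 76008741 to 76010041 (1301 bp) had the largest fold of any member, 34.0, which was number 18 by fold and number 439 by p of the LNCaP list. Peaks at a distance of 25 bp on each side had folds of 3.78 and 3.79. The remaining peak, at 76010466 to 76010541, was the first along the gene and had a fold of 9.84. None of the 4 LNCaP p-values was under the PC3 p limit. Where member peaks overlapped, the PC3 p was the smaller one in 29 of 31 pairs. In pairs with a LNCaP p above the PC3 p limit it had to be, so the lists set part of this count in advance. What p the same fold would have in PC3 cannot be read from a LNCaP p. A difference between the lines on EVPL was not tested.

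**Figure D3:**
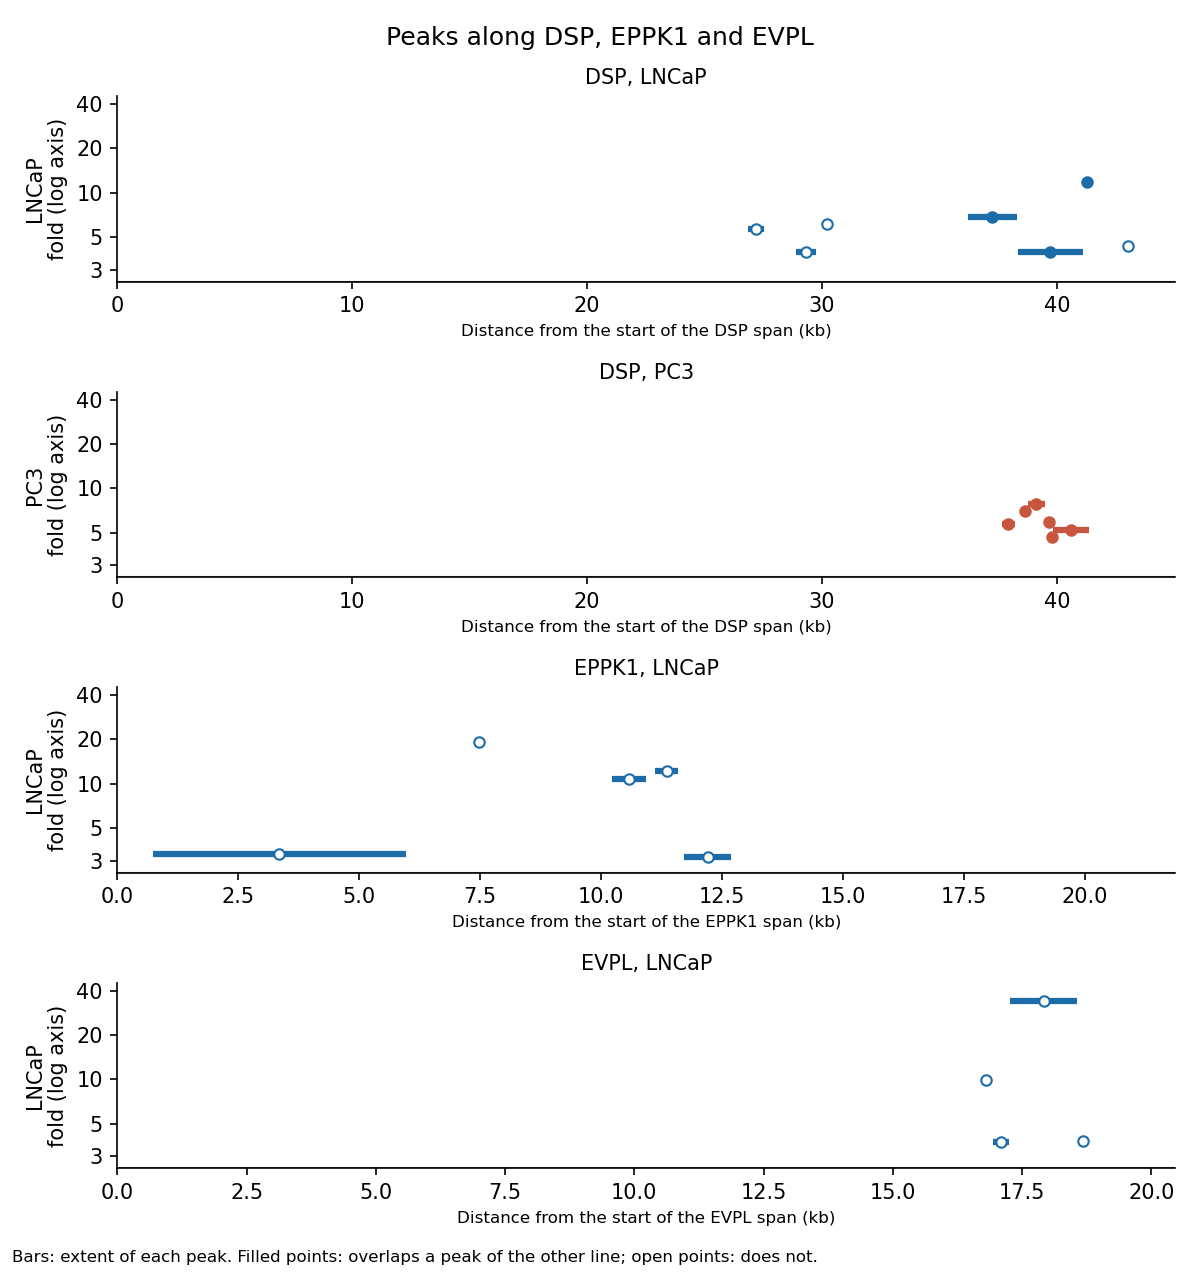
Fold of each peak (log axis) against its distance in kb from the start of the gene, in the direction of transcription, for DSP in LNCaP and PC3 and for EPPK1 and EVPL in LNCaP. Bars span each peak and filled points mark overlap with the other line. DSP and EVPL peaks lie beyond 26 kb and 16.8 kb, and EPPK1 peaks end at 12.7 kb.

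DST (chromosome 6, 56457996 to 56954830, minus strand, 496835 bp) and PPL (chromosome 16, 4882507 to 4937148, minus strand, 54642 bp) held no peak in either line. DST is the longest member and the closest relative of MACF1, which had the most peaks in LNCaP. The nearest listed peak to DST was 8903327 bp away in LNCaP and 4188850 bp away in PC3. Whether these genes were expressed cannot be read from the lists, and a gene that is not expressed cannot be told apart from one whose RNA was not enriched.

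Between the lines, member peaks overlapped in 23 of 30 cases seen from PC3 (76.7%, exact 95% binomial interval 57.7 to 90.1%) and in 25 of 55 seen from LNCaP (45.5%, 32.0 to 59.4%). Over all listed peaks the shares were 44.4% and 21.3%. Over the peaks of all genes that had a peak in both lists they were 62.7% and 58.3%. On PLEC, MACF1 and DSP, the members with a peak in both, the share was 76.7% of the PC3 peaks and 54.3% of the 46 LNCaP peaks (39.0 to 69.1%). Both intervals held the background share of such genes, which includes the peaks of these members. The intervals treat peaks as independent, and peaks of 1 gene are not, so nothing is read from them. An overlap here means at least 1 bp on the same strand, and with 50% of both peaks required the share fell to 26.7% in PC3 and 14.5% in LNCaP. No member peak had identical bounds in both lists. At or under the PC3 p limit, 17 LNCaP peaks remained on members and 10 of them overlapped a PC3 peak. The 7 without a counterpart were 3 on MACF1, 3 on EPPK1 and 1 on DSP.

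The median fold of member peaks was 5.70 in LNCaP (exact 95% binomial interval from order statistics 4.805 to 7.04, 55 peaks) and 6.50 in PC3 (5.76 to 8.04, 30 peaks). Over all listed peaks it was 5.26 (5.15 to 5.36) and 5.74 (5.48 to 5.93). Since fold was among the values that chose the family and peaks of 1 gene are not independent, nothing is read from these intervals. PLEC had higher folds than MACF1 and DSP in the median. Its own median was 7.49 in LNCaP and 9.04 in PC3, while MACF1 had 4.97 and 5.59, DSP had 5.64 and 5.85, and EPPK1 and EVPL had 10.8 and 6.81 in LNCaP. Without PLEC, the median over members was 5.35 in LNCaP and 5.76 in PC3. The folds were made separately in each list and were not tested between them.

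**Figure D4:**
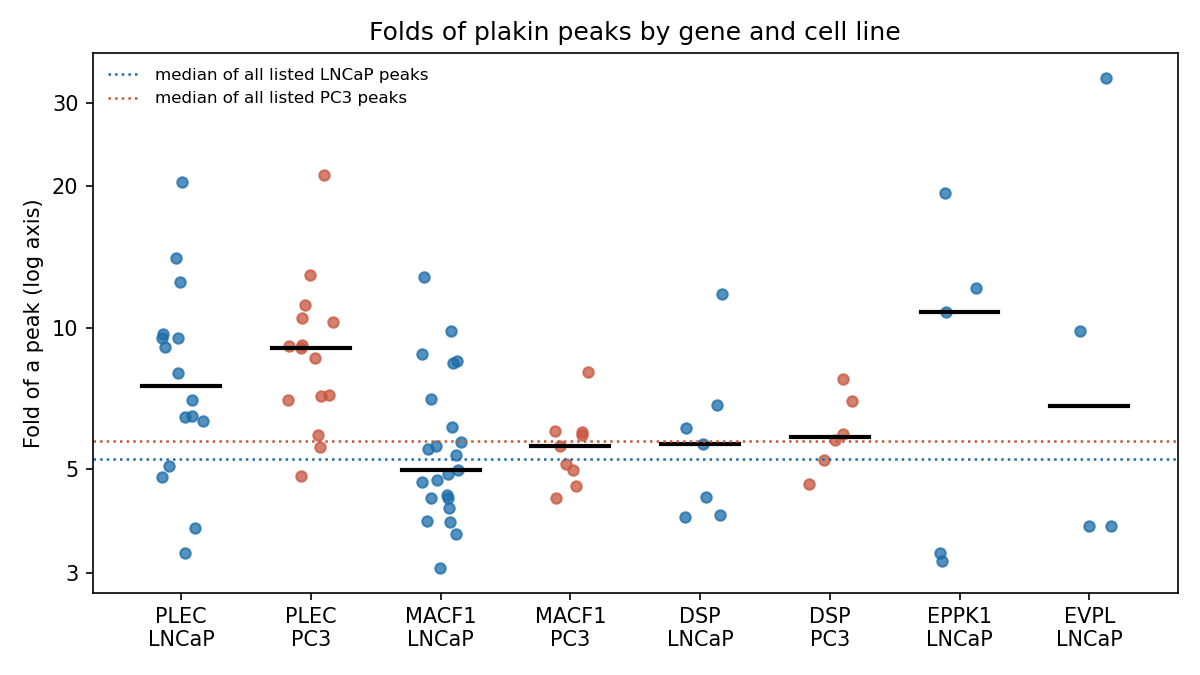
Fold of every member peak (log axis) by gene and cell line, with a black bar at the median of each group and dotted lines at the median of all listed peaks of each line. PLEC medians of 7.49 and 9.04 lie above the dotted lines, while the MACF1 medians of 4.97 and 5.59 lie just below them.

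Member peaks were placed towards the ends of the genes. With each gene span divided into 3 equal parts, 39 of 55 LNCaP peaks (70.9%, exact 95% binomial interval 57.1 to 82.4%) and 26 of 30 PC3 peaks (86.7%, 69.3 to 96.2%) had their midpoint in the last part. Over all peaks within a single protein-coding gene the shares were 45.8% and 56.3%, below both intervals. The intervals treat peaks as independent, and peaks of 1 gene are not, so this is a description of the lists. The first part held 4 LNCaP peaks and 0 of 30 PC3 peaks, and the middle part held 12 and 4. By gene, the last part held 12 of 16 and 12 of 15 PLEC peaks, 18 of 23 and 8 of 9 MACF1 peaks, 5 of 7 and 6 of 6 DSP peaks, in LNCaP and PC3, and 4 of 4 EVPL peaks in LNCaP. EPPK1 was the exception, with 0 of 5. The share remained 69.2% in LNCaP and 93.3% in PC3 without PLEC, and 65.6% and 85.7% without MACF1. Positions are along the span with its introns, and which exons the peaks hold was not analysed here.

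**Figure D5:**
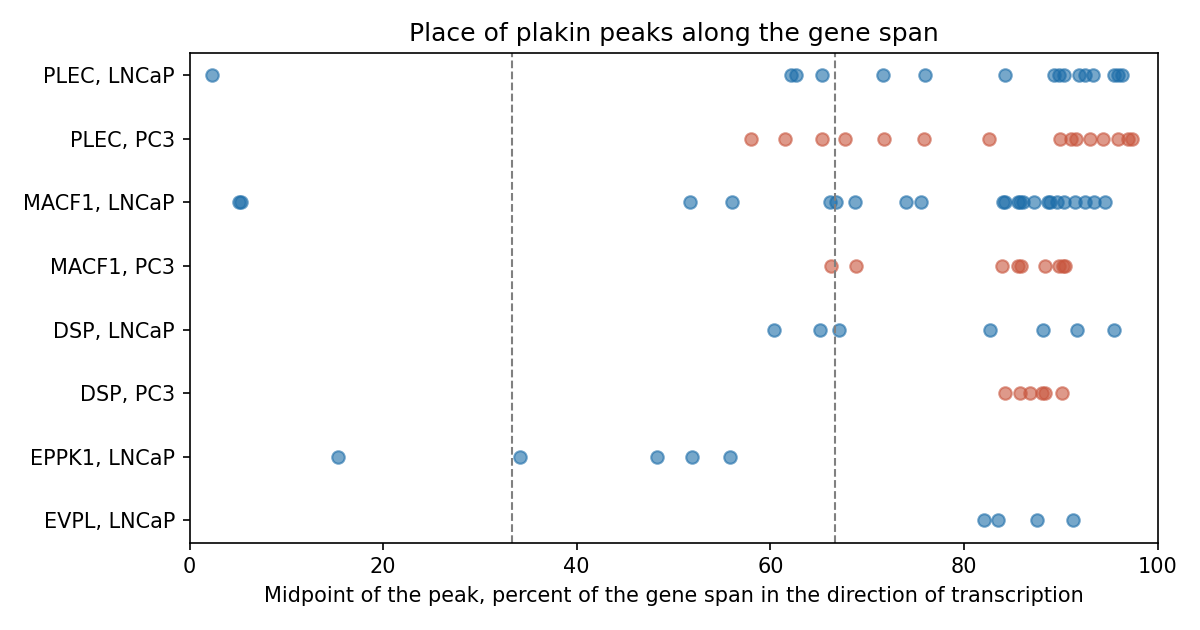
Midpoint of every member peak as a percent of the gene span in the direction of transcription, by gene and cell line. Dashed lines divide the span into 3 equal parts. The last part holds 39 of 55 LNCaP and 26 of 30 PC3 peaks, with EPPK1 the one gene that has none there.

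Many member peaks were pieces of longer stretches. Joining peaks at most 25 bp apart left 44 of the 55 in LNCaP and 24 of the 30 in PC3. PLEC went from 16 to 11 stretches in LNCaP and from 15 to 12 in PC3. The same joining was not counted over the whole lists, so whether members differ from them in this is not known. The shortest length in the lists, 51 bp, made up 10 of the LNCaP member peaks (18.2%) and 1 of the PC3 member peaks (3.33%), against 12.5% and 10.5% of the whole lists. MACF1 held 6 of the 10. Member peaks had a median length of 476 bp for LNCaP and of 613.5 bp for PC3, under the 924.5 and 922 bp of the lists.

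The proteins that plakins bind were looked up as a list of 44 partner genes, grouped as intermediate filament and nuclear envelope, desmosome and junction, hemidesmosome, microtubule and actin, and signalling partners. Of these, 14 carried a peak in LNCaP (31.8%), 9 in PC3 (20.5%) and 5 in both, and 26 had none in either line. The background was 5.62% and 1.83% of protein-coding genes, and 8.53% and 2.96% of those with a span of at least 20000 bp. The partners had a median span of 51751 bp against 24170.5 bp over all protein-coding genes. The list was chosen with earlier results of these data known, and no test of it was made. KRT8 and KRT18 both count among the 14, and the only KRT18 peak is also one of the KRT8 peaks. FLNA, for the actin cross-linker filamin A, had 15 LNCaP and 16 PC3 peaks.

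Among intermediate filament and nuclear envelope partners, 4 of 12 had a LNCaP peak and 2 a PC3 peak. SYNE2, which encodes a nesprin of the nuclear envelope, had 4 LNCaP peaks with folds from 4.26 to 6.19, and LMNA, for the A-type lamins, had 2 in LNCaP and 1 in PC3. KRT8 had 2 in LNCaP, with folds of 3.50 and 4.33, but they lay on different strands, and the plus-strand one, with the fold of 3.50, lies within the KRT18 span too. Among desmosome and junction partners, 3 of 10 had a peak in LNCaP and 1 in PC3. PNN, for pinin, had 4 LNCaP peaks, and CDH1, for E-cadherin, and KAZN, for kazrin, had 3 each. Among hemidesmosome partners, LAMA3, for a chain of laminin-332, had 4 LNCaP peaks with folds up to 15.1 and 1 PC3 peak with a fold of 3.95. ITGB4, the hemidesmosomal integrin chain that plectin binds, had no peak whole within its span, and a PC3 peak with a fold of 5.31 that lay across the spans of ITGB4 and GALK1 was on the minus strand, whereas ITGB4 is transcribed from the plus strand. ACTN4, for an actin cross-linker, had 1 LNCaP and 2 PC3 peaks. A further 8 partners had a single peak each.

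Genes near to PLEC by number of peaks in the 2 lines included FLNA and DYNC1H1, at distances of 0.12 and 0.37 on the log2(peaks + 1) scale. DYNC1H1, the dynein heavy chain, had 13 and 18 peaks in LNCaP and PC3. The gene nearest to MACF1 was SRRM2, with 16 and 9 peaks and a distance of 0.50. Likeness over 2 lines is a description of counts alone.

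Spectrin repeats also form the rods of MACF1 and dystonin. Among the 7 spectrin genes, 2 carried a peak in LNCaP and 3 in PC3, against 5.62% and 1.83% of all protein-coding genes. SPTAN1 had 8 LNCaP and 12 PC3 peaks. SPTBN1 had 0 and 6, and its PC3 peaks were not all on the strand of the gene. UTRN, for the spectrin-repeat protein utrophin, had 12 LNCaP and 2 PC3 peaks. AHNAK and AHNAK2, for giant scaffold proteins, had 20 and 3 peaks in PC3 and none in LNCaP. Differences between these families and the plakins were not tested.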

How the data were processed

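METTL3 RIP-seq and input were measured in LNCaP and PC3 cells, 2 libraries per group. The authors deposited 1 peak list per line whose columns hold per peak a linear fold (a ratio), the p-value with its FDR, and a score, per the file headers. Fastp, STAR 2.5.3a, bedtools and deepTools and the build hg38 are named in the submitters' processing notes. The peak caller, filters and handling of replicates are not given in the sources used here, so depth is unknown. Peaks were assigned to RefSeq GRCh38.p14 gene spans with Python 3.11.15 and pandas 2.3.3, by functions tested on simulated peaks. Intervals are exact (Clopper-Pearson, 95%, scipy 1.17.1). No test between lines or against other genes was made.

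Named genes were the 7 members, partner genes with 2 or more peaks, the 3 genes nearest in peak number to PLEC and to MACF1, and fixed comparison families. Members and lists were chosen with earlier results of these data known. Start windows matched 3 of the 7 members. Peak sequences, exons and proteins were not analysed here. Some genes that these rules name are not reported here.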

Additional observations from a re-analysis of the deposited data

How the results depend on the processing

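No paired analysis was possible because each line has a single list without replicate values, which also prevented leaving out a replicate or fitting a replicate block. Depth is unknown, and its part in the peak numbers was not tested.

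Of 54 alternative values, 49 stayed within 1.5 times the count or within the exact 95% interval of the share or median. The other 5 moved. Some of the 49 could not move, so their number does not measure how stable the results are. The PC3 p limit removes no PC3 peak. All member peaks were on the strand of their gene and no peak lay across the edge of a span, so settings on strand and edges changed nothing. At or under the PC3 p limit, the LNCaP member peaks fell from 55 to 17, the share of PC3 peaks overlapping a LNCaP peak became 50%, and the LNCaP median fold became 9.48, which follows from fewer and stronger LNCaP peaks. Members with a LNCaP peak were then 4, without EVPL. When the overlap had to hold 50% of both peaks, it became 26.7% in PC3 and 14.5% in LNCaP.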
